A study of Mus musculus with 6 samples.

Results

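The cells described here were 65 dendritic cells with transcripts of Cd209a, a C-type lectin receptor gene, out of 6364 cells captured with YUMM2.1 mouse melanoma material. They were picked from 2 single-cell RNA libraries by their raw counts of unique molecular identifiers (UMIs, 1 per captured transcript). A cell needed at least 200 detected genes and at most 20% mitochondrial UMIs, and then at least 2 Cd209a UMIs. It had to lack any UMI of Siglech (plasmacytoid dendritic cells), Cd79a (B cells), Xcr1 (cross-presenting dendritic cells), Plet1 and Epcam (an Mgl2-expressing dendritic class), Cd3e and Cd3d (T cells) and Ncr1 (NK cells). It also had to hold fewer than 5 UMIs summed over C1qa, C1qb and C1qc (macrophages) and not both Ccr7 and Fscn1 (mature dendritic cells). These readout-based conditions, and the choice of the class itself, used the same counts, so the level of Cd209a and the absence of the excluded genes are descriptions and not results.

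The study asked how the status of Bmal1, the circadian clock transcription factor encoded by Arntl, bears on melanoma and its immune cells. The source label named only the YUMM2.1 cell line, yet 3431 of 3978 Empty vector cells and 1411 of 2386 Bmal1 WT cells held a UMI of Ptprc, the pan-leukocyte CD45 gene. The 1 group carried Empty vector and the other Bmal1 WT, and the labels gave no host strain, sex, age, tissue, time point, promoter or clone for either. Each group was 1 droplet library in which 3 replicates carried different hashtag antibodies (h1, h7 and h8 for Empty vector, and h3, h5 and h9 for Bmal1 WT), so group and droplet channel cannot be told apart. The labels did not say whether hashtags marked separate animals or cultures, and the tests below take hashtag samples as replicates. The edgeR p-values also rest on variance shared over genes, above all in the class comparisons with 2 replicates. The Bmal1 bHLH group was left out, as 3 of 3 of its expression files repeated the Bmal1 WT library. Any pair of the 15-base hashtag barcodes differed at 8 to 14 of the 15 positions. The replicates of every comparison below were told apart by these barcodes.
Empty vector h1: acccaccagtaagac
Empty vector h7: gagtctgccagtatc
Empty vector h8: tatagaacgccaggc
Bmal1 WT h3: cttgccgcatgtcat
Bmal1 WT h5: ctttgtctttgtgag
Bmal1 WT h9: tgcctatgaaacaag

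Dendritic cells take up antigen, load it on MHC class II molecules and present it to CD4+ T cells. Conventional dendritic cells arise from Flt3-dependent precursors, whereas classical monocytes, marked by Ly6c2, Ccr2 and Csf1r, can take on MHC class II and Cd209a in inflamed tissue and are then called monocyte-derived dendritic cells. Cd209a is a mouse homologue of human DC-SIGN and binds fucose- and mannose-bearing glycans, as its relatives Cd209d and Cd209e may, and Clec10a is a galactose-type lectin of the dendritic lineage. The genes lay, on GRCm38, at chromosome 8, 3743397 to 3748984, minus strand (Cd209a), chromosome 8, 3871824 to 3878555, minus strand (Cd209d), chromosome 11, 70156197 to 70170834, plus strand (Clec10a) and chromosome 5, 147330741 to 147400489, minus strand (Flt3). The chemistry read transcripts from their 3' ends, so values were UMIs per gene and not per exon.

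The Empty vector library held 34232927 UMIs in 4147 barcodes and the Bmal1 WT library 39561569 in 2785, with medians of 5094 and 7570.5 UMIs per kept cell. The 65 cells held 1317 to 21875 UMIs, with a median of 8988 UMIs, 2894 genes and 3.76% mitochondrial UMIs. The libraries shared 5 cell barcodes, none of them among the 65. No doublet caller was run, and cells with several hashtags entered no replicate value.

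In all, 106 cells held at least 2 Cd209a UMIs, of which 65 met the other conditions, 56 of them from Empty vector and 9 from Bmal1 WT. Of the 106, 19 failed on Siglech, 17 on Plet1 or Epcam, 7 on Cd3e or Cd3d, 4 on Ncr1, 2 on the C1q genes and 1 on Xcr1, and some failed on more than 1. The most frequent failures were thus on markers of other dendritic classes, and 16 cells failed on Siglech alone and 12 on Plet1 or Epcam alone. The 65 cells held 2 to 49 Cd209a UMIs with a median of 5, and the median was 5 (2 to 49) among the Empty vector cells and 7 (3 to 38) among those of Bmal1 WT. The plot of Cd209a against depth shows that high Cd209a counts occurred in shallow as well as deep cells.

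**Figure D1:**
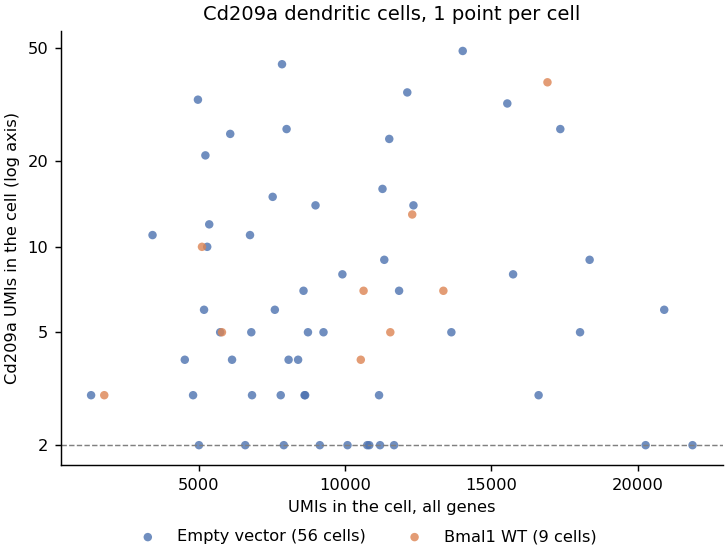
UMIs of Cd209a in a cell (y axis, log scale) against all UMIs of that cell (x axis), with 1 point for each of the 56 Empty vector (blue) and 9 Bmal1 WT (orange) Cd209a dendritic cells; the dashed line is the minimum of 2 UMIs. Cd209a ranged from 2 to 49 UMIs, and 11 cells, all from Empty vector, lay on the minimum.

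At the threshold, 19 cells with 1 Cd209a UMI met every other condition and lay just outside, and 11 cells with exactly 2 UMIs lay just inside. The 19 outside cells held Cd209d at 11.0 CPM (UMIs of the gene per 1000000 UMIs of those cells), Clec10a at 203, Flt3 at 43.8, H2-Aa at 4255 and Ccr2 at 1731. The 11 cells inside held Cd209d at 87.8 CPM, Clec10a at 335, Flt3 at 104, H2-Aa at 3926 and Ccr2 at 982. In the 54 cells with 3 or more UMIs these levels were 180 CPM for Cd209d, 502 for Clec10a, 128 for Flt3, 4972 for H2-Aa and 884 for Ccr2. From band to band Cd209d, Clec10a and Flt3 were higher and Ccr2 lower, with Clec10a at 829 CPM and Cd209d at 364 CPM in the 21 cells with at least 10 Cd209a UMIs. Other monocyte genes did not follow Ccr2 throughout. Ly6c2 stood at 498 CPM with 1 Cd209a UMI, 144 with 2, 403 with 3 or more and 556 with 10 or more. Fcgr1 stood at 274, 136, 134 and 152 CPM in the same bands.

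The markers by which the class is named were checked next, against the share of T cells with the same transcript, since T cells should lack these genes. Clec10a was found in 40 of 65 cells (61.5%) and in 1.74% of T cells, Flt3, the receptor for the dendritic cell growth factor, in 32 of 65 (49.2%) and 1.59%, and Cd209d in 20 of 65 (30.8%) and 0.227%. Median depth was 8988 UMIs in the Cd209a cells and 5521.5 in T cells. After every cell was thinned to 2000 UMIs, which kept 63 of 65 and 1250 of 1324 cells, the shares were 33.3% and 0.72% for Clec10a, 27.0% and 0.88% for Flt3, and 14.3% and 0.08% for Cd209d. All 3 markers were therefore found more often than in T cells, although most cells held no Cd209d UMI. The class was chosen and named from these same counts, so this is a description and not a test. H2-Aa, an MHC class II alpha chain, was found in 60 of 65 cells (92.3%) and 9.89% of T cells, and Cd74, its invariant chain, in 64 of 65 (98.5%) and 20.7%.

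Monocyte genes were present in the same cells. Ccr2, the receptor that brings monocytes out of the marrow, was found in 62 of 65 cells (95.4%) at 903 CPM (95% Poisson interval 831 to 979). Plac8, an abundant transcript of classical monocytes, was found in 61 of 65 cells (93.8%) at 3583 CPM. Csf1r, the receptor for macrophage colony-stimulating factor, was found in 41 cells (63.1%) at 214 CPM, Ly6c2 in 38 (58.5%) at 352 CPM and Fcgr1, a high-affinity Fc receptor gene often used to tell monocyte-derived cells, in 31 (47.7%) at 134 CPM. Such intervals cover counting error only. Of genes used for conventional dendritic cells, Dpp4 (CD26) was found in 38 of 65 cells (58.5%) at 115 CPM and Zbtb46, a transcription factor of that lineage, in 12 (18.5%) at 20.3 CPM. Thus Flt3, MHC class II and monocyte transcripts were measured within 1 class, and what lineage the cells came from was not tested.

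Pairs of markers were then counted within cells. Flt3 and Fcgr1 occurred together in 14 cells, Flt3 without Fcgr1 in 18, Fcgr1 without Flt3 in 17 and neither in 16. Flt3 and Ly6c2 occurred together in 18 cells, Flt3 alone in 14, Ly6c2 alone in 20 and neither in 13. All 4 combinations were therefore filled for both pairs, and the cells did not fall into a Flt3 class and a monocyte class by these counts, which at these levels miss transcripts in many cells. Clec10a and Mgl2, its paralogue, occurred together in 19 cells, Clec10a alone in 21, Mgl2 alone in 4 and neither in 21. The near-identical lectin paralogues may share reads, as the treatment of reads that fit several genes was not given in the sources used here.

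Markers of other cell types were summed next. Of 7 T cell markers 5 were at 0 UMIs in the cells with a hashtag, Cd3g and Trac among them, and the summed level was at most 7.83 CPM in any replicate. Of 5 melanoma markers 3 were at 0, Sox10 and S100b among them, and the sum ranged from 7.83 to 12.9 CPM over the Empty vector replicates and from 0 to 56.9 over those of Bmal1 WT. The 5 fibroblast markers summed to 0 to 11.3 CPM and 0 to 19.0 CPM, with Col1a2, Col3a1 and Dcn at 0. Summed plasmacytoid markers were higher, at 568 to 980 CPM for Empty vector and 0 to 911 for Bmal1 WT, with Ly6d and Klk1 at 0. The 8 B cell markers summed to 45.1 to 168 CPM and 0 to 94.8 CPM, with 4 of 8 at 0, and the 5 NK cell markers to 51.6 to 152 CPM and 0 to 213 CPM, with Klrb1c and Nkg7 at 0. Macrophage markers summed to 282 to 387 CPM and 0 to 322 CPM with 1 of 7 at 0, neutrophil markers to 25.8 to 35.2 CPM and 0 to 37.9 CPM with 3 of 5 at 0, and mast cell or basophil markers to at most 5.63 CPM with 4 of 5 at 0.

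The levels across classes were compared next, each class being gated on raw UMIs of its own markers. Cd209d stood at 162 CPM in the Cd209a cells (95% Poisson interval 132 to 196), at 131 CPM in the 67 plasmacytoid dendritic cells, at 3.99 CPM in the 150 Mgl2 Epcam Plet1 dendritic cells and at 0.236 CPM in the 418 Ly6c2 classical monocytes. Cd209e followed the same order, with 99.8, 60.5, 1.20 and 0 CPM. Both genes were at 0 in the 95 Xcr1 dendritic cells and the 224 mature dendritic cells. Clec10a was at 469 CPM in the Cd209a cells, 264 in plasmacytoid, 83.0 in Mgl2 Epcam Plet1, 49.4 in Xcr1 and 24.7 in monocytes. The lectins of the Cd209 cluster and Clec10a therefore had their next highest level in plasmacytoid cells, of which 13 of 67 (19.4%) held at least 2 Cd209a UMIs against 6 of 1324 T cells (0.453%), at median depths of 9822 and 5521.5 UMIs.

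**Figure D2:**
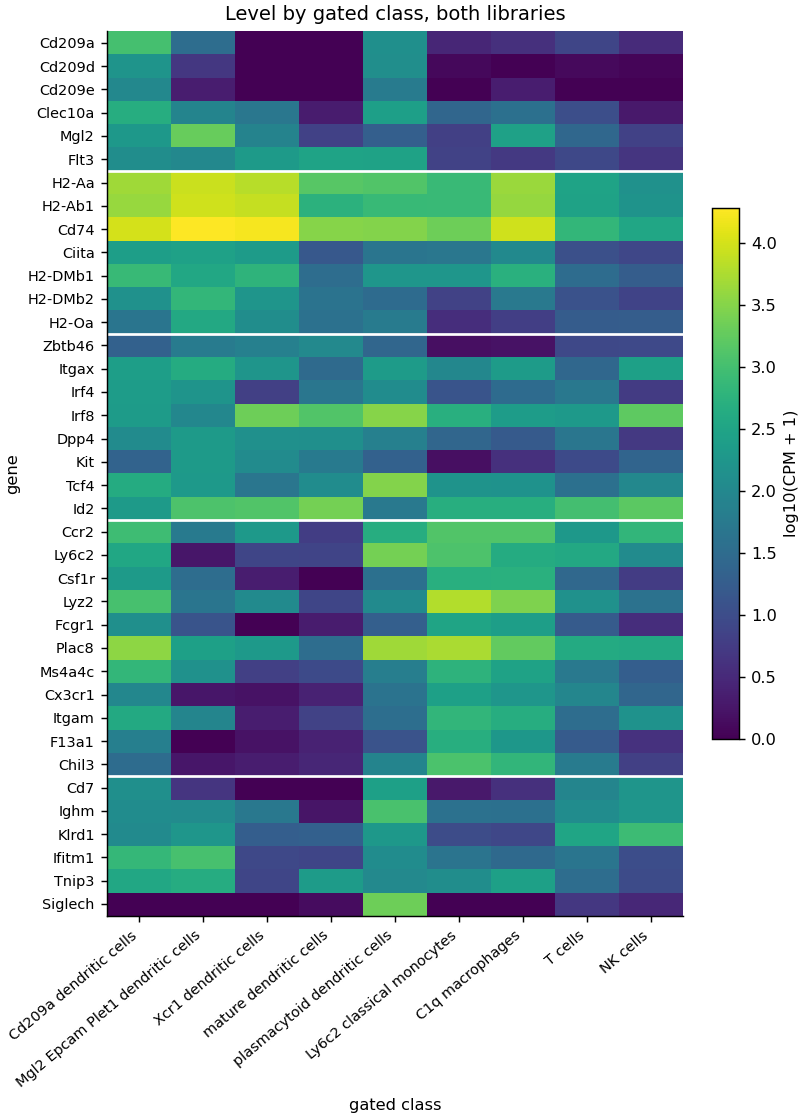
Heat map of log10(CPM + 1) for 38 genes (rows, parted by white lines into lectins with Flt3, MHC class II, dendritic lineage, monocyte lineage and further genes) in 9 gated classes (columns), both libraries together. The Cd209a dendritic cells in the first column carry lectin, MHC class II and monocyte genes at once; Cd209a and Siglech were used to gate and show the choice of cells.

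Against plasmacytoid dendritic cells, which secrete type I interferon, the values were as follows and no test was made. Siglech was a gate. Ccr9, a homing receptor, stood at 7.80 CPM in the Cd209a cells against 2391, Tcf4, the transcription factor that fixes plasmacytoid identity, at 426 against 3068, Runx2 at 96.7 against 1029 and Ly6d at 0 against 847. H2-Aa stood at 4768 CPM against 1327 and Ccr2 at 903 against 463. Genes often seen in lymphoid or plasmacytoid cells were found in part of the Cd209a cells. Cd7 stood at 134 CPM against 275 and was found in 24 of 65 cells (36.9%), Ighm, the IgM heavy chain, at 118 against 1107 and Klrd1, a lectin receptor of NK cells, at 109 against 193. In T cells Ighm stood at 122 CPM and Cd7 at 86.9, and in NK cells Klrd1 stood at 866, so the Ighm level of the Cd209a cells was no higher than that of T cells. Ighm was uneven over the Cd209a cells, and single cells held 21 and 13 of its UMIs.

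The Cd209a cells were then tested against 3 classes by summing UMIs per hashtag replicate and class. A sum needed at least 10 cells, which only h1 and h8 reached, both from Empty vector. Genes of the gates were left out, and the edgeR quasi-likelihood test with the hashtag as a block was used, with Benjamini-Hochberg adjustment at 0.05 over every gene tested. Cd209d, Clec10a and Flt3, by which the class is named, were kept in, so calls of these genes are descriptions. Log2 fold changes are Cd209a cells minus the other class, with n = 2 replicates throughout. The ± of a log2 fold change, here and between groups, is a standard error worked out from the edgeR F statistic. That statistic uses variance shared over genes, so the ± is not a spread measured between the replicates. Where a class had no UMI, the fold is a lower bound against 3 UMIs over both replicates, and where it had 1 to 3 UMIs the ratio is given with its Poisson interval. Because this leaves 1 residual degree of freedom per gene, counts from DESeq2 on the same sums are given beside those of edgeR.

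Compared with Ly6c2 classical monocytes, the Cd209a cells had several-fold more MHC class II transcripts and fewer transcripts of monocyte genes such as Cd14, Thbs1 and Spp1. H2-Aa stood at 4413 and 5539 CPM in h1 and h8 against 536 and 615 in monocytes, a log2 difference of 3.11 ± 0.17 (edgeR adjusted p = 2.5e-07). Cd74 stood at 9507 and 11111 CPM against 1491 and 1930, a difference of 2.60 ± 0.14 (edgeR adjusted p = 2.5e-07). Flt3 stood at 110 and 130 CPM against 7.78 and 3.27, a difference of 4.31 ± 0.49 (edgeR adjusted p = 0.00015). DESeq2 called all 3 genes as well. In all, 541 of 5733 genes passed (9.44%), of which 223 were higher (3.89%) and 318 lower (5.55%), and DESeq2 called 125, all among the 541.

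In the MHC class II list, 7 of 9 genes tested were higher and 2 lower than in monocytes, with a median log2 difference of 2.30 against 0.07 over all genes, and DESeq2 called 7 and 1. The higher genes included H2-Ab1 (2.81 ± 0.18), H2-Eb1 (3.13 ± 0.22) and Ciita, the class II transactivator (2.18 ± 0.28), and the lower ones were the lysosomal proteases Lgmn (-1.35 ± 0.30) and Ctss (-0.73 ± 0.17). In the dendritic cell lineage list, 6 of 17 were higher and 2 lower (median 0.34), and DESeq2 called 2 and 1. Irf4, a transcription factor of type 2 conventional and monocyte-derived dendritic cells, was at 172 and 237 CPM against 11.3 and 18.5 (3.79 ± 0.34, edgeR adjusted p = 2.8e-05), whereas Irf8 (-1.11 ± 0.26, edgeR adjusted p = 0.017) and Zeb2, at 407 and 282 CPM against 1027 and 794 (-1.41 ± 0.22), were lower. In the lectin list 4 of 11 were higher and 4 lower, DESeq2 calling 1 and 1. Clec10a was higher by 3.83 ± 0.31 (edgeR adjusted p = 9.7e-06), and Cd209d, at 227 and 78.9 CPM against 0 and 0, was at least 129-fold higher by edgeR but was not called by DESeq2.

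Of the monocyte lineage list, 0 of 17 genes tested were higher and 11 lower (median -1.24), of which DESeq2 called 3, while Ly6c2, Lyz2 and Csf1r gated the monocytes and were left out. Cd14, the lipopolysaccharide co-receptor, was at 372 and 242 CPM against 1308 and 1175 (-2.03 ± 0.23, edgeR adjusted p = 0.00014), and F13a1, a coagulation factor, at 86.1 and 56.3 against 542 and 467 (-2.81 ± 0.30). Ccr2, at 932 and 856 CPM against 1588 and 1171, did not pass (-0.61 ± 0.20, edgeR adjusted p = 0.072), although it passed as lower with TMM scaling (edgeR adjusted p = 0.041). Neither did Ms4a4c (-0.24 ± 0.22, edgeR adjusted p = 0.60). In the chemokine list 0 of 15 were higher and 6 lower, DESeq2 calling 3, in the cytokine list 0 and 4 of 10, in the interferon list 0 and 4 of 16 and in the hypoxia and glycolysis list 0 and 4 of 15. Of the 5 clock genes tested, Nfil3, a repressor of the clock and a lymphoid and dendritic lineage factor, was lower (-1.60 ± 0.30) and the other 4 did not pass. Of the co-stimulation list 2 of 9 were higher and 1 lower, of the heat shock and immediate early list 0 and 2 of 15, and of the cell cycle list 1 and 0 of 4. The 1 B cell marker tested was higher by edgeR (1.48) and was not called by DESeq2.

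The 10 genes most raised over monocytes held, besides the lectins, Flt3 and Irf4, also Cd7 (68 UMIs against 3, a ratio of 122 with interval 40.1 to 607), the collagen receptor Ddr1 (5.49 ± 0.58), the kynurenine pathway enzyme Kmo (5.09 ± 0.34), the interferon-induced membrane gene Ifitm1 (4.56 ± 0.32) and Bcl11a, a transcription factor of lymphoid and plasmacytoid cells (4.20 ± 0.30). All but Cd209d and Cd209e of these 10 were called by DESeq2 too. Over the 10 most raised and the 10 most lowered genes together, DESeq2 called 12 of 20, so it called fewer of the lowered ones. Among the 10 most lowered, Thbs1, encoding thrombospondin, stood at 11.7 and 22.5 CPM against 1498 and 1878 (-6.66 ± 0.32, edgeR adjusted p = 1.7e-07) and Spp1, encoding osteopontin, at 23.5 and 28.2 against 2910 and 1500 (-6.44 ± 0.32, edgeR adjusted p = 1.7e-07). The heme oxygenase gene Hmox1 was lower by a ratio of 73.7 (interval 20.3 to 610) and Slpi by 65.3 (interval 11.6 to 2586), and C3ar1, Lpl and Vcan were at 0 UMIs in the Cd209a cells and at least 38.8-fold, 36.4-fold and 29.4-fold lower. The other 3, Dcn, Col3a1 and Col1a2, are fibroblast matrix genes, also at 0 in the Cd209a cells. In the monocytes they came from h8, where the 5 fibroblast markers summed to 1744 CPM against 8.48 CPM in h1, and the part of this 1 replicate in their calls was not tested.

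Compared with Xcr1 dendritic cells, the class that cross-presents antigen to CD8+ T cells, the Cd209a cells had more monocyte transcripts and fewer MHC class II transcripts. Ms4a4c, a monocyte membrane gene, stood at 599 and 558 CPM in h1 and h8 against 16.6 and 4.37, a log2 difference of 5.70 ± 0.48 (edgeR adjusted p = 4.5e-06). Irf8, the transcription factor that Xcr1 cells require, stood at 196 and 321 CPM against 2744 and 1952 (-3.20 ± 0.32, edgeR adjusted p = 1.2e-05). Irf4 stood at 172 and 237 CPM against 0 and 34.9 (3.62 ± 0.58, edgeR adjusted p = 0.00038). DESeq2 called these 3 genes too. In all, 744 of 2937 genes passed (25.3%), 512 higher (17.4%) and 232 lower (7.90%). With TMM scaling, which moved the median over all genes by -0.20, the split was 422 higher and 319 lower of 741, and DESeq2 called 246.

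Of the monocyte lineage list, 14 of 15 genes tested were higher than in Xcr1 cells and 0 lower (median 4.15 against 0.22 over all genes), and DESeq2 called 11. Ly6c2 stood at 333 and 141 CPM against 0 and 4.37, and Csf1r, with 1 UMI in the Xcr1 cells, differed by a ratio of 108 (interval 19.0 to 4326). Cebpb, a myeloid transcription factor, was higher by 3.85 ± 0.35, Lyz2, encoding lysozyme, by 3.16 ± 0.34 and Ccr2 by 1.99 ± 0.38, with edgeR adjusted p from 7.2e-06 to 0.0015. The Lyz2 sums came largely from few cells. Single h1 cells held 114, 97 and 83 of its 375 UMIs, and a single h8 cell 38 of 74. Fcgr1 and Itgam, the gene of CD11b, had no UMI in Xcr1 cells and were at least 24.6-fold and 60.0-fold higher. Of the MHC class II list, 7 of 12 were lower and 2 higher (median -0.73), DESeq2 calling 4 and 1. The lower genes included H2-Eb1 (-1.38 ± 0.20), H2-Ab1 (-1.10 ± 0.19) and Cd74 (-0.84 ± 0.16), and H2-Aa (-0.61 ± 0.19) was called by edgeR at an adjusted p of 0.030 but lost that call with TMM scaling.

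The dendritic cell lineage list split, with 5 of 17 higher and 4 lower than in Xcr1 cells (median -0.03), DESeq2 calling 3 and 2. Zeb2 was higher by 4.02 ± 0.44, Tcf4 by 2.60 ± 0.45 and Klf4, a factor of Irf4-dependent dendritic cells, by 1.46 ± 0.31, whereas Id2 (-2.31 ± 0.28) and Flt3 (-1.10 ± 0.33, edgeR adjusted p = 0.024) were lower. In the lectin list 3 of 6 were higher and 2 lower, Clec9a, the receptor for dead-cell actin on cross-presenting cells, at -3.90 ± 0.38 and Clec12a at -4.93 ± 0.51. In the chemokine list 9 of 13 were higher and 2 lower, in the cytokine list 5 of 5 were higher, and in the interferon list 8 of 12 were higher and 1 lower, DESeq2 calling 5 and 0, 3 and 0, and 3 and 0. Cxcl10, an interferon-induced chemokine, stood at 791 and 800 CPM against 0 and 0 and was at least 124-fold higher. Of the 6 cell cycle genes tested, 5 were lower (median -1.89) and DESeq2 called 4. Of the heat shock and immediate early list 8 of 15 were higher and 1 lower, of the hypoxia and glycolysis list 3 and 0 of 13, of the co-stimulation list 1 and 0 of 6 and of the clock list 2 and 0 of 3.

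Among the 10 genes most raised over Xcr1 cells, apart from Cxcl10, Itgam, Cd7 and Cd209d, were Dab2 (at least 60.4-fold), Rsad2 (42.7-fold), Atp2b4 (37.2-fold), Tmem176a (33.3-fold) and the E-cadherin gene Cdh1 (32.9-fold), each against 0 UMIs. The last, Ccl24, rested on 87 UMIs from 2 of 65 cells. Among the 10 most lowered, all at 0 UMIs in the Cd209a cells, were the retinoic acid hydroxylase Cyp26b1 (at least 188-fold), the CD103 gene Itgae (104-fold), the adhesion gene Cadm1 (49.5-fold), Dnase1l3 and Serpinb6b (38.1-fold each) and Ffar4 (34.1-fold). Zcchc4 and Pclaf (26.4-fold each), AC163354.1 (18.1-fold) and Pianp (17.8-fold) completed them. Of these 20 genes, DESeq2 called 7, which were Tmem176a, Cd7, Cadm1, Serpinb6b, Ffar4, Zcchc4 and AC163354.1.

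Compared with Mgl2 Epcam Plet1 dendritic cells, which also express Irf4 and MHC class II, the Cd209a cells had far more Ccr2, Ly6c2 and Lyz2 and less of the MHC class II and peptide-editing genes. Ccr2 stood at 932 and 856 CPM in h1 and h8 against 8.04 and 10.2, a log2 difference of 6.53 ± 0.38 (edgeR adjusted p = 2.2e-06). Lyz2 stood at 1468 and 417 CPM against 21.4 and 12.2 (5.66 ± 0.38, edgeR adjusted p = 3.6e-06), and its sums in the Cd209a cells again came largely from few cells. Ly6c2 stood at 333 and 141 CPM against 0 and 0 and was at least 73.2-fold higher by edgeR, with no call by DESeq2. In all, 552 of 3946 genes passed (14.0%), 315 higher (7.98%) and 237 lower (6.01%), and DESeq2 called 170, all among the 552.

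Of the monocyte lineage list, 13 of 16 genes tested were higher than in Mgl2 Epcam Plet1 cells and 0 lower (median 3.00 against 0.11 over all genes), and DESeq2 called 8. Plac8 was higher by 3.93 ± 0.26, Csf1r by 3.22 ± 0.40 and Fcgr1 by 3.57 ± 0.45, with edgeR adjusted p from 3.6e-06 to 0.00028. Of the MHC class II list 7 of 12 were lower and 2 higher (median -0.93), DESeq2 calling 6 and 1. H2-DMb2, part of the peptide editor, was at 74.4 and 135 CPM against 656 and 685 (-2.72 ± 0.32) and H2-Oa, which restrains that editor, at 43.1 and 84.5 against 413 and 407 (-2.74 ± 0.36). H2-Eb1 (-1.58 ± 0.22), H2-Ab1 (-1.23 ± 0.22), H2-Aa (-0.93 ± 0.21) and Cd74 (-0.93 ± 0.21) were lower by smaller amounts, and Lgmn was higher (2.37 ± 0.37).

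The dendritic lineage list again split, with 4 of 19 higher and 4 lower (median 0.10), DESeq2 calling 2 and 2. Zeb2 (2.07 ± 0.31) and Notch2 (2.11 ± 0.32), a receptor needed by part of the type 2 dendritic cells, were higher, and Id2 (-2.40 ± 0.28) and Kit (-3.18 ± 0.56) were lower. Flt3, at 110 and 130 CPM against 113 and 110, did not pass (0.10 ± 0.33, edgeR adjusted p = 0.88), nor did Irf4, at 172 and 237 against 284 and 61.1 (0.48 ± 0.50, edgeR adjusted p = 0.59). In the chemokine list 5 of 14 were higher and 4 lower, DESeq2 calling 4 and 2. Ccl17, a chemokine for Ccr4-bearing T cells, was at 43.1 and 107 CPM against 1602 and 3325 (-5.06 ± 0.30, edgeR adjusted p = 2.2e-06), while Cxcl10 was higher (4.88 ± 0.55, edgeR adjusted p = 0.00014). In the lectin list 3 of 6 were higher and 3 lower, in the interferon list 3 of 14 higher and 0 lower, and in the cell cycle list 0 of 7 higher and 4 lower, DESeq2 calling 0 and 2, 1 and 0, and 0 and 1. Of the cytokine list 4 of 7 were higher and 2 lower, of the co-stimulation list 1 and 2 of 10, of the heat shock and immediate early list 3 and 1 of 13, and of the hypoxia (15 tested) and clock (3 tested) lists 0 and 0.

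Among the 10 genes most raised over Mgl2 Epcam Plet1 cells, beside Ly6c2, Ccr2 and Lyz2, were the fractalkine receptor Cx3cr1 (at least 35.3-fold), Tgfbi (a ratio of 216, interval 73.1 to 1051), the LFA-1 alpha chain Itgal (119, interval 32.2 to 992), Atp2b4 (103, interval 27.7 to 860), Fam129b (97.8, interval 16.8 to 3941) and Cd209e (51.9, interval 13.7 to 440). Among the 10 most lowered were Itgae (at least 91.5-fold), the macrophage elastase Mmp12 (54.4-fold), the fusion receptor Dcstamp (50.9-fold), Tcea3 (28.1-fold), Cdh17 (27.4-fold), Adam23 (24.4-fold), Ppp1r1a (21.9-fold) and Spint2 (17.5-fold), all at 0 UMIs in the Cd209a cells. Egr3 (a ratio of 119, interval 21.1 to 4709) and Ppp1r14a (62.1, interval 10.9 to 2473) had 1 UMI each. Of these 20 genes, DESeq2 called 10, which were Tgfbi, Atp2b4, Ccr2, Itgal, Fam129b, Lyz2, Cdh17, Spint2, Egr3 and Ppp1r14a.

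**Figure D3:**
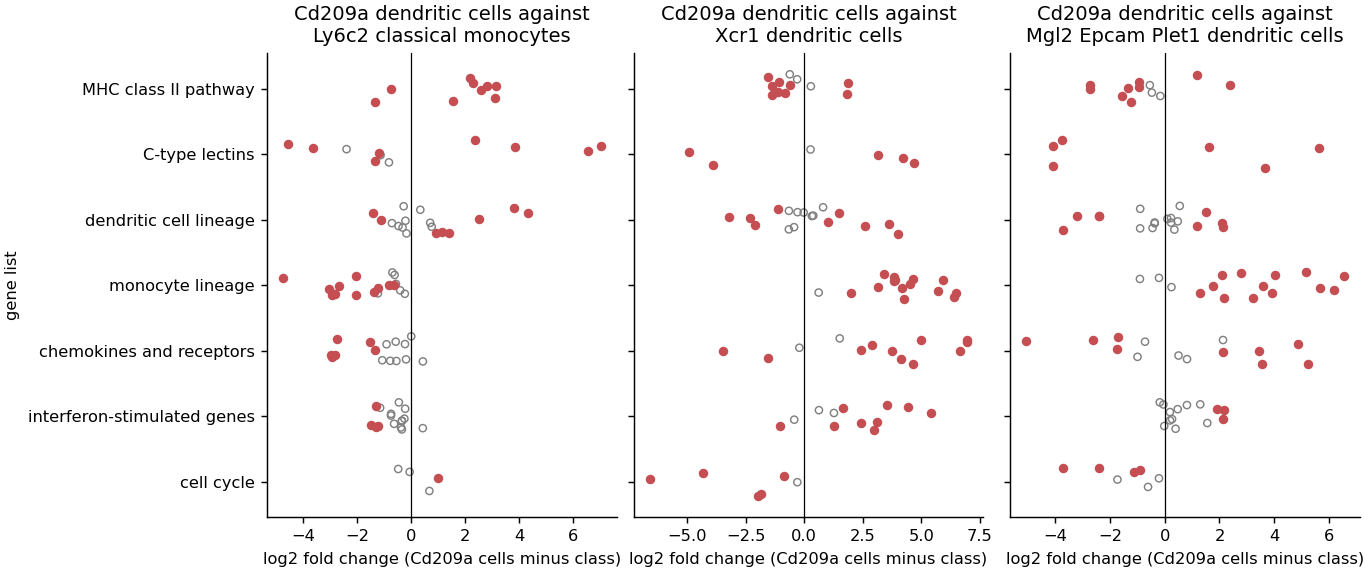
Log2 fold change (x axis, Cd209a dendritic cells minus the named class) of each gene tested in 7 gene lists (y axis) for 3 comparisons of 2 Empty vector replicates; filled red points passed the edgeR test, open grey points did not, and genes at 0 UMIs in 1 class are drawn at their bound. The monocyte lineage genes called were lower than in monocytes (11 of 17) and higher than in Xcr1 (14 of 15) and Mgl2 Epcam Plet1 cells (13 of 16), and the MHC class II genes lay mostly the other way.

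Across the 3 comparisons the Cd209a cells thus lay below monocytes and above Xcr1 and Mgl2 Epcam Plet1 dendritic cells for monocyte genes. For MHC class II they lay above monocytes and mostly below those dendritic classes. Plasmacytoid and mature dendritic cells were not tested, and H2-Aa stood lower in plasmacytoid cells than in the Cd209a cells. The comparisons share the same Cd209a sums, so their counts are not independent of each other. The gates also fix part of the direction of any gene that varies with a gate gene from cell to cell.

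Empty vector and Bmal1 WT were compared next, first by the share of cells. In Empty vector the Cd209a cells made up 1.92% of h1 (27 of 1403 cells), 1.01% of h7 (7 of 696) and 1.51% of h8 (17 of 1123). In Bmal1 WT they made up 0.625% of h3 (5 of 800), 0.404% of h5 (2 of 495) and 0.307% of h9 (1 of 326). The groups did not overlap, with means of 1.48% ± 0.460 and 0.445% ± 0.163 (SD, n = 3 each), a difference of -1.04 percentage points and a ratio of 3.33. A two-sided exact permutation test gave p = 0.10, the smallest that 3 against 3 allows. Over whole libraries, with cells of no or several hashtags, the shares were 1.41% (exact Clopper-Pearson 95% interval 1.07 to 1.82) and 0.377% (0.173 to 0.715). A lower share of such cells in Bmal1 WT was known when the class was chosen, so this difference is not independent support.

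The shares were computed again over leukocytes. Of cells with a Ptprc UMI, the Cd209a cells made up 2.08%, 0.926% and 1.63% in h1, h7 and h8, and 0.727%, 0.283% and 0.392% in h3, h5 and h9, with means of 1.54% ± 0.582 and 0.467% ± 0.231 and exact permutation p = 0.10 (0.25 after Benjamini-Hochberg adjustment over the 10 gated classes). With a minimum of 3 Cd209a UMIs the groups overlapped for this denominator, the difference being -0.744 points with an exact permutation p = 0.20. The Cd209a cells of Bmal1 WT were the deeper ones, with a median of 10631 UMIs against 8682. Plasmacytoid dendritic cells had means of 1.76% in Empty vector and 0.930% in Bmal1 WT, and Xcr1 dendritic cells 0.839% and 3.90% of cells with a Ptprc UMI, and C1q macrophages 2.12% and 3.91%, each at the exact permutation minimum of p = 0.10, and classical monocytes stood at 8.09% and 8.19%. Fewer cells in a library and lower capture of that type cannot be told apart here.

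**Figure D4:**
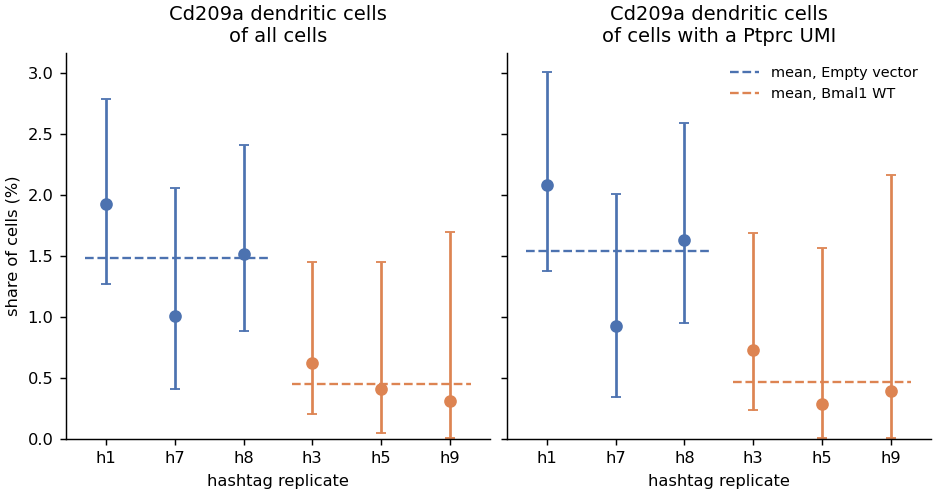
Share of Cd209a dendritic cells (y axis, percent) among all cells (left) and among cells with a Ptprc UMI (right) in each hashtag replicate (x axis); bars are exact 95% binomial intervals and dashed lines the means of the 3 replicates. The 3 Empty vector values of all cells (1.01% to 1.92%) lie above the 3 Bmal1 WT values (0.307% to 0.625%), while the intervals of single replicates overlap.

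The markers of the class were then set side by side in the replicates. Cd209a, used to pick the cells, stood at 1057, 981 and 1127 CPM in h1, h7 and h8 and at 1233, 1138 and 658 in h3, h5 and h9. Clec10a stood at 290, 607 and 411 CPM against 1271, 356 and 564, and Flt3 at 110, 142 and 130 against 75.9, 142 and 376. H2-Aa stood at 4413, 4686 and 5539 CPM against 2580, 6827 and 5738, and Ccr2 at 932, 1020 and 856 against 1005, 782 and 753. The groups overlapped for each of these 5 genes. Cd209d was uneven within both groups, at 227, 0 and 78.9 CPM against 379, 0 and 0.

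The test across genes used sums over 51 Empty vector and 8 Bmal1 WT cells, the latter with 52718 UMIs in h3, 14061 in h5 and 10631 in h9, where the sum was 1 cell. Of 2163 genes with at least 50 UMIs, 0 (0%) passed at an adjusted p of 0.05 by edgeR and 0 by DESeq2. At an unadjusted p under 0.05 there were 154 by edgeR (7.12%), of which 112 were lower in Bmal1 WT (5.18%), and 97 by DESeq2. The lists gave the same count of 0 in each. Over all genes 1213 of 2163 were fitted below 0, with a median of -0.09. The Empty vector sums held 510339 UMIs and those of Bmal1 WT 77410, so a gene could reach 50 UMIs through Empty vector alone. Rsad2 (133 UMIs against 0) and Ifit2 (81 against 0) did so. The filter thus favoured genes high in Empty vector, and the counts and medians below 0 are descriptions only. Of 12 interferon-stimulated genes tested, 11 were fitted below 0 (median -0.64), with 4 at an unadjusted p under 0.05, and of 11 hypoxia and glycolysis genes 11 (median -0.81), with 1. Other lists had medians below 0 as well, with -1.11 for 3 clock genes, -0.62 for 14 chemokine genes, -0.53 for 6 co-stimulation genes, -0.49 for 5 cytokine genes and -0.39 for 13 heat shock and immediate early genes. The clock genes tested were Bhlhe40 (-1.13), Per1 (-1.11) and Nfil3 (-0.13), out of 19 listed. Nr1d1 and Per2 held 0 UMIs in every replicate and Dbp 1 UMI in h3, so they were not tested. The 15 dendritic lineage genes had a median of -0.10, the 15 monocyte genes -0.09, the 10 MHC class II genes 0.03, the 8 lectins 0.19 and the 3 cell cycle genes 0.28.

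As no gene passed, the 10 genes with the smallest unadjusted p in each direction are given without a call. Tnip3, encoding an inhibitor of NF-kB activation, stood at 364, 516 and 338 CPM in h1, h7 and h8 and at 37.9, 0 and 0 in h3, h5 and h9, a log2 difference of -3.93 ± 0.73 (edgeR adjusted p = 0.19). Rsad2, the interferon-induced antiviral enzyme viperin, stood at 305, 194 and 225 CPM against 0, 0 and 0, a fold of at least 6.72 against 3 UMIs in the Bmal1 WT sums (edgeR adjusted p = 0.22). Ifitm1 stood at 619, 607 and 1121 CPM against 190, 71.1 and 282 (-2.13 ± 0.48, edgeR adjusted p = 0.38) and Nfkbia, the NF-kB inhibitor, at 920, 426 and 659 against 75.9, 284 and 188 (-2.25). These genes were picked by smallest p, so the separation of their groups is a description, and its share over all genes was not counted. In the Bmal1 WT sums 3 UMIs amount to 38.8 CPM. The others were Nfkbiz, AY036118, Rasgef1b, Ahnak, Ifit2 and Nr4a2.

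In the other direction, Bcl2a1b, a survival gene of the Bcl2 family, stood at 50.9, 103 and 107 CPM in h1, h7 and h8 against 436, 284 and 94.1 in h3, h5 and h9 (1.97, edgeR adjusted p = 0.41), and its groups overlapped. Wfdc17 stood at 654, 284 and 456 CPM against 740, 2845 and 1223 (1.66, edgeR adjusted p = 0.42), and its lack of overlap is likewise a description. Rgs1, a regulator of chemokine receptor signalling, stood at 188, 0 and 248 CPM against 209, 996 and 2163 (2.54, edgeR adjusted p = 0.60), with overlap. The others were Krt80, Sec11a, Nr4a3, Iigp1, Tmsb4x, Man2b1 and Ap2s1. Arntl, the gene of Bmal1 itself, held 1 UMI in the 56 Empty vector and 2 in the 9 Bmal1 WT cells. In cells with no Ptprc UMI, where a vector would be looked for, Arntl stood at 61.3, 25.2 and 47.0 CPM in Empty vector and at 39.9, 58.2 and 51.9 in Bmal1 WT, with overlap, and whether a vector transcript would be counted as Arntl was not given in the sources used here.

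**Figure D5:**
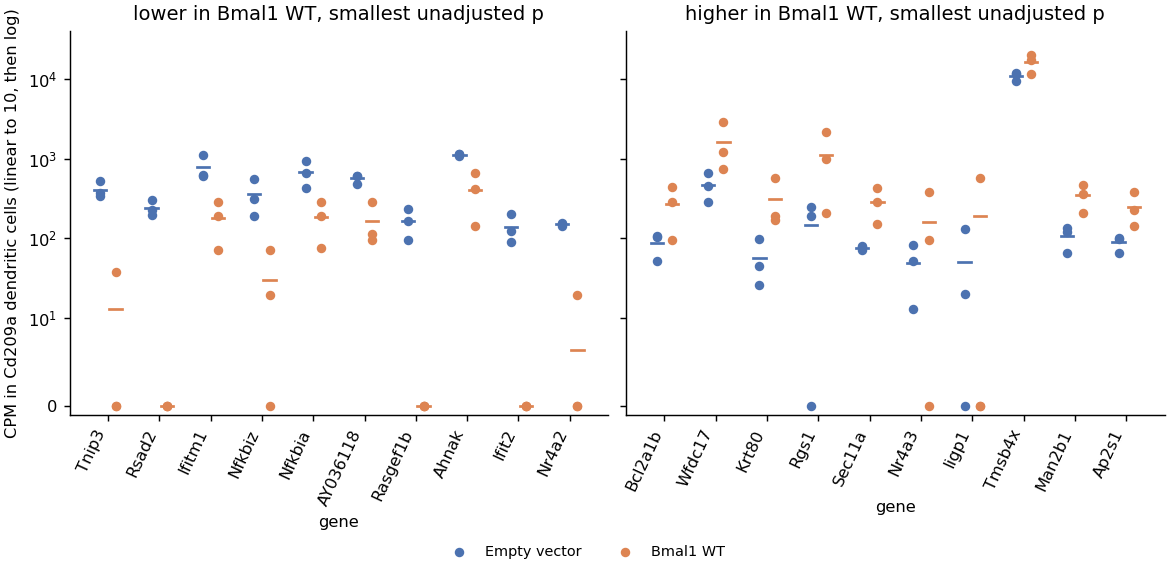
Level in Cd209a dendritic cells (y axis, CPM, linear to 10 and logarithmic above) of the 10 genes with the smallest unadjusted p in each direction (x axis), with 1 point per hashtag replicate and bars at the mean of 3; none of the 20 passed the adjusted test. Rsad2, Rasgef1b and Ifit2 are at 0 in all 3 Bmal1 WT replicates, which hold 5, 2 and 1 cells.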

How the data were processed

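Single-cell libraries of 2 groups (Empty vector and Bmal1 WT, 3 hashtag replicates each) were analysed. The authors deposited raw counts, that is UMIs per gene, hashtag and barcode, made with Cell Ranger against mm10 per the labels; the sources used here give no settings, version, strand or handling of multi-mapped reads. Identifiers were matched to GENCODE M21 (31011 of 31053 genes). No column was left unused (0). Hashtags were assigned with a 2-component Gaussian mixture (scikit-learn 1.9.0); 388 and 660 cells had none and 368 and 105 several. UMIs were summed per replicate and tested with edgeR 4.0.16 (genes with at least 50 UMIs, library size the total UMIs, seed 1), with DESeq2 1.42.0 as alternative; shares were tested with exact permutations (scipy 1.17.1). Code was tested on simulated data. Intervals were exact binomial or Poisson at 95%.

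The members, the 21 lists (256 genes, 3 not matched) and the tests were chosen with earlier results of these data known. Named genes were the list genes; the 10 per direction with the largest fold among called genes of at least 100 CPM in each class comparison; and the 10 per direction by smallest p between groups where none passed. Mitochondrial, ribosomal, Gm, Rik and gate genes were left out. Alternatives were filters, scalings, thresholds, hashtag calls, the replicate block and single replicates. Some items are not reported here.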

Additional observations from a re-analysis of the deposited data

How the results depend on the processing

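Between Empty vector and Bmal1 WT, the count of 0 genes called of 2163 became 12 of 4359 with genes of at least 20 UMIs, 13 of 10615 with no filter on genes and 1 of 2332 with hashtags taken by the highest centred log count, and ranged from 0 to 2 without single replicates, the 2 arising without Bmal1 WT h5; it stayed at 0 with TMM scaling (160 genes at an unadjusted p under 0.05), DESeq2 (97), a minimum of 3 Cd209a UMIs (134) and stricter cell filters (154). The 12 genes at the lower filter included Tnip3, Rsad2, Ifitm1 and Nfkbia, and 5 were higher and 7 lower. A gene could reach 20 UMIs through Empty vector alone, as Rsad2 did (133 UMIs against 0), and Tnip3 held 193 UMIs against 2. These calls are therefore descriptions only, and the cause was not tested. The difference in share kept its direction in every alternative run, from -0.815 to -1.27 points of all cells and from -0.809 to -1.39 points of Ptprc cells without single replicates, and -0.626 and -0.668 points with cells thinned to 2000 UMIs.

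DESeq2 called 125 genes against monocytes (edgeR 541), 246 against Xcr1 cells (744) and 170 against Mgl2 Epcam Plet1 cells (552). With at least 5 cells per sum, an alternative chosen after seeing the data that adds h3 and, except for Xcr1 cells, h7, counts were 806, 937 and 930, of which 484, 686 and 503 were shared with the main counts. Class sums of 1 hashtag are paired by construction, since both come from the same replicate; without the replicate block the counts were 378, 647 and 492. TMM gave 765, 741 and 728, moving the median over all genes by -0.06, -0.20 and -0.11, and no filter gave 763, 1094 and 828. No gene called by edgeR and named by the rule or lists changed sign. Of genes named as not passing, Ms4a4c against monocytes went from -0.24 to 0.21 with at least 5 cells per sum, Flt3 against Mgl2 Epcam Plet1 cells went from 0.10 to -0.018 with TMM and -0.00445 with DESeq2, and Ccr2 against monocytes passed the edgeR test with TMM, with no filter and with at least 5 cells per sum (adjusted p 0.041, 0.047 and 0.023). Genes followed over the alternatives numbered 86, 98 and 83. They include Ccr2 and Ms4a4c (monocytes) and Flt3 and Irf4 (Mgl2 Epcam Plet1 cells), which did not pass. Calls were lost by 44, 51 and 40 of the genes followed under at least 1 alternative, mostly DESeq2 (42, 49 and 39). Leaving out a replicate could not be fitted for the class comparisons, which have 2. No paired analysis was possible because Empty vector and Bmal1 WT share no hashtag number.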
